A study of Homo sapiens with 4 samples.

Results

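To describe how the route from arginine to spermine looked after confined migration, 10 genes were followed: the transporter SLC7A1, the arginine-making enzymes ASS1 and ASL, the arginase ARG2, the ornithine decarboxylase ODC1 with its regulator AZIN1, and the polyamine enzymes AMD1, SRM, SMS and SAT1. They were selected from the results of this same comparison, in which ARG2 was among the genes with the largest fall, and the others were added by their place in the pathway. The difference between ORM and control cells is therefore given for these genes as a description, without a p-value. Of the 10 genes, 9 had a probe set in the platform annotation used here, 1 each, out of 17687 genes with a symbol. ODC1 is not listed in that annotation and was not analysed here.

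Transcript levels were read on human Clariom S arrays, a 1-colour platform with probe sets for annotated genes. All samples were Jurkat, an established cell line of T-cell acute lymphoblastic leukemia, grown in RPMI with serum, and the protocols name no drug and no genetic change in either group. ORM (one-round migration) cells had crossed 3 μm pores once and were taken from beneath the filter after 24 h, and control cells are described by one label as cells in suspension and by the series design as cells that had not migrated. There were 2 ORM and 2 control arrays, called biological replicates in their titles. A free-text label gives other conditions for these arrays: it calls ORM replicate 1 a control, and the controls cells in suspension after confinement. The groups were therefore taken from the titles and sources. The labels disagree on whether the control cells had been confined. ORM cells are the ones that got through the pores, so an effect of the passage and a difference of the cells able to pass cannot be told apart. The paper's transwell method places cells in serum-free medium above the filter, with serum below. If the ORM cells were made in this way, an effect of medium and chamber cannot be told apart either.

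Arginine enters cells through cationic amino acid transporters such as SLC7A1, or is made from citrulline by ASS1 and then ASL. Arginases split it into urea and ornithine. ODC1 turns ornithine into putrescine, and the spermidine and spermine synthases SRM and SMS extend putrescine with aminopropyl groups that AMD1 provides by decarboxylating S-adenosylmethionine. AZIN1 protects ODC1 by binding its inhibitor, antizyme, and SAT1 acetylates spermidine and spermine for export or breakdown. Polyamines are needed for growth, and their synthesis is a known target of the transcription factor MYC in proliferating lymphocytes.

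The promoters of ARG2, SRM and SMS are shown because ARG2 had the largest difference of the 9 genes, in the direction opposite to the synthases SRM and SMS, and because each has a single RefSeq window. The windows come from RefSeq (GRCh38.p14) and run from 250 bases before to 50 after the gene's start, 5′ to 3′ on the gene's strand. They are chr14:67619670-67619969 (plus strand) for ARG2, chr1:11059969-11060268 (minus strand) for SRM and chrX:21940459-21940758 (plus strand) for SMS. Capitals mark matches, on either strand, to the E-box CACGTG bound by MYC and related factors, to the cyclic AMP response element TGACGTCA bound by CREB and ATF proteins, and to the CCAAT box bound by NF-Y; no match overlaps another.
ARG2: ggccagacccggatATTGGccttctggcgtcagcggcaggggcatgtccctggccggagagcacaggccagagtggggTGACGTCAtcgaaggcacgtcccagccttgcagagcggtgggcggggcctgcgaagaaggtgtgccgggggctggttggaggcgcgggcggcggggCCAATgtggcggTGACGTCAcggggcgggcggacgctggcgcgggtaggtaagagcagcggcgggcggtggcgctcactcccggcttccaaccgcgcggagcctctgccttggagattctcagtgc
SRM: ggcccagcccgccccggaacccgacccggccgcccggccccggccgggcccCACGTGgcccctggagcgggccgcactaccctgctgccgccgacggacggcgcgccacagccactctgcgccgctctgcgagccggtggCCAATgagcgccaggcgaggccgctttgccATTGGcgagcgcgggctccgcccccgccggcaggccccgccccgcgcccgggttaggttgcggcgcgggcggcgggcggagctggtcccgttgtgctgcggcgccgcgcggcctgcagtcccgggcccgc
SMS: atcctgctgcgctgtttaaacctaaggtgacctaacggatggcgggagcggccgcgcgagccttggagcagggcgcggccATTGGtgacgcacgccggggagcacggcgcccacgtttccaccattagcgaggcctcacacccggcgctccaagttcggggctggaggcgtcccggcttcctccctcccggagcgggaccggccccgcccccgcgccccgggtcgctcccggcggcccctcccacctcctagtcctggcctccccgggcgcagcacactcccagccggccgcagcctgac

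The ARG2 window holds 2 copies of TGACGTCA, which begin 172 and 64 bases before the start, and 2 CCAAT boxes. TGACGTCA occurs in 1.85% of the 35116 promoter windows of this length in the table, and ARG2 was the only 1 of the 9 matched genes to hold it. The SRM window holds 1 CACGTG, which begins 199 bases before the start, and 2 CCAAT boxes. CACGTG occurs in 7.26% of all windows. It was also found in a window of ASS1 and in a window of ODC1, which makes 3 of the 9 genes. The percentages are per window, and a gene with several windows, such as ASS1 or ODC1, has more chances of a match. The SMS window holds 1 CCAAT box and neither of the other motifs. CCAAT occurs in 34.6% of all windows and was found in 7 of the 9 genes. Windows were matched for 9 of the 10 genes, without AZIN1, in 13 windows. A match of letters is no evidence that a factor binds there.

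All values are the authors' log2 signals, in which a difference of 1 is a 2-fold change. A gene counts as past the threshold at a fold change over 1.8 with an unadjusted p under 0.05, the study's own cut-off, from limma fitted across all 21448 probe sets. By this rule 0.704% of probe sets were past the threshold (91 higher in ORM cells and 60 lower), and limma gave 0 probe sets with an adjusted p under 0.05 (its minimum was 0.428) and 2447 with an unadjusted p under 0.05. The control arrays differed more from each other than the ORM arrays did. Across probe sets the SD of the log2 difference was 0.404 between the control arrays and 0.248 between the ORM arrays. The array lying farthest from its nearest neighbour was control replicate 2 in 41.5% of probe sets and in 6 of the 9 genes described here. The cells carried T-cell markers, with 9 of 10, among them CD3E and LCK, above the upper quartile on every array and CD2 below the median. Of 18 measured markers of epithelium, fibroblasts and the erythroid, myeloid and B-cell lineages, 6 lay above the median on every array. These were the B-cell genes CD79A (9.69 to 10.25), CD79B and PAX5, the erythroid HBA1 and the fibroblast genes COL1A1 and COL1A2. MS4A1, LYZ, EPCAM and CDH1 lay below the lower quartile on every array, and 0 markers of any type passed the threshold. As in any bulk sample, fewer cells carrying a transcript and less of it per cell cannot be told apart.

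ARG2, the mitochondrial arginase, was lower in ORM than in control cells by the widest margin of the 9 genes. It was read at 6.0 and 6.26 in ORM cells, against 6.84 and 8.11 in control cells. Both ORM arrays lay below both control arrays, but the 1.27 between the control arrays was wider than the step of 0.71 from control replicate 1 down to the ORM mean. The mean was 6.13 ± 0.18 (SD, n = 2) for ORM against 7.48 ± 0.90 (SD, n = 2) for control cells, which gives a log2 difference of -1.345 (standard error 0.392) or 2.54-fold. A gap between the control arrays at least as wide as that of ARG2 was found in 0.676% of all probe sets. ARG2 was the 1 gene of the 9 past the threshold, in the lower direction, which 0.28% of all probe sets were too; since its fall led to the choice, nothing is read from this count. Against control replicate 1 alone the log2 difference was -0.71 and no longer past the threshold, and against control replicate 2 alone it was -1.98. It was not past the threshold without ORM replicate 1 either (-1.215), nor by the methods' t-test.

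**Figure D1:**
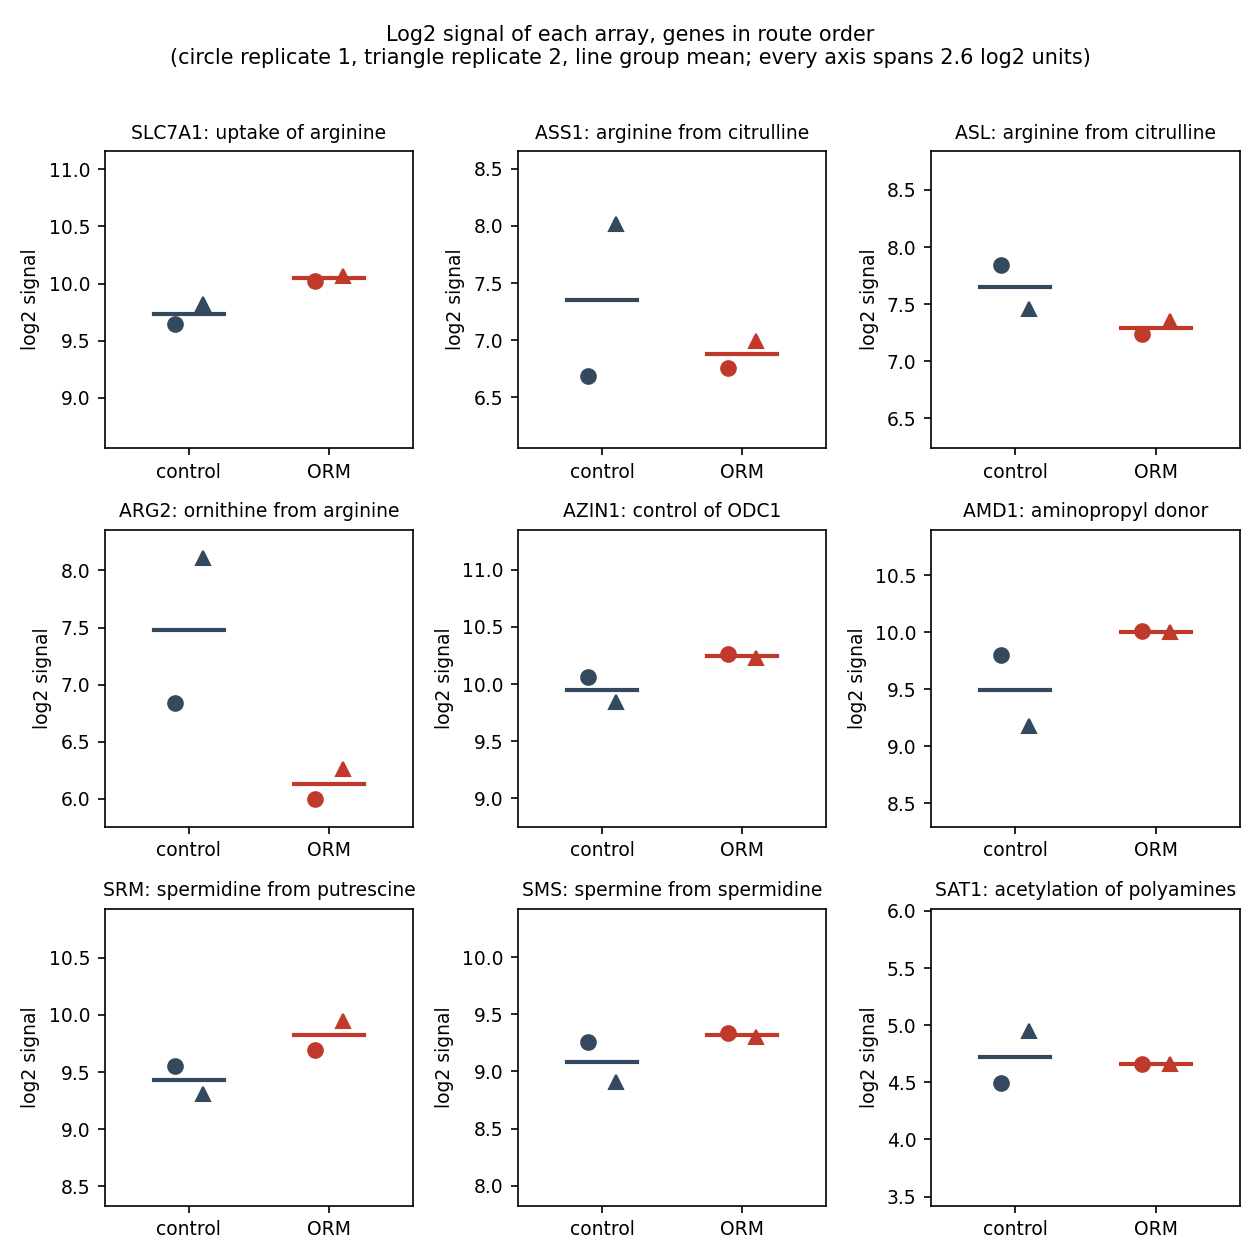
Log2 signal (y axis) of the 9 measured genes in the 2 control and 2 ORM arrays (x axis), in the order of the route from arginine to spermine, with a circle for replicate 1, a triangle for replicate 2 and a line for the group mean; every y axis spans the same width. ARG2 and ASS1 have control arrays that lie 1.27 and 1.33 apart, while in SLC7A1, AZIN1, AMD1, SRM and SMS both ORM arrays lie above both control arrays.

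The 4 arrays of ARG2 were most closely followed, among 17678 other genes, by SMIM24, TLR7 and CD48. Likeness was the root mean square distance between the 4 log2 values after each gene was centred on its own mean, at 0.065 for SMIM24, 0.0973 for TLR7 and 0.101 for CD48, and 4 genes were closer than 0.15. TLR7 is an endosomal receptor for RNA and CD48 an adhesion molecule of leukocytes. All 3 shared the wide control gap, with control replicate 2 above control replicate 1 by 1.15 for SMIM24, 1.19 for TLR7 and 1.24 for CD48, and 4 arrays are too few to set such a pattern apart.

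The 2 enzymes that make arginine had different patterns over the 4 arrays. ASS1, which joins citrulline and aspartate, was at 6.76 and 6.99 in the ORM arrays and at 6.69 and 8.02 in the control arrays. Only control replicate 2 was high, and control replicate 1 was the lowest of the 4 arrays, so the groups overlapped. The log2 difference was -0.48 (standard error 0.405), and it turned from -1.145 against control replicate 2 alone, which is past the threshold, to 0.185 against control replicate 1 alone. A control gap as wide as its 1.33 was found in 0.504% of probe sets. RefSeq names 14 pseudogenes after ASS1, and whether its probe set also reads them was not tested.

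ASL, which releases arginine from argininosuccinate, was at 7.24 and 7.35 in the ORM arrays and at 7.84 and 7.46 in the control arrays. Both ORM arrays were lower than both control arrays, here with control replicate 1 the highest. The log2 difference of -0.355 (standard error 0.19) was not past the threshold, at -0.545 against control replicate 1 alone and -0.165 against control replicate 2 alone.

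SLC7A1, the main arginine importer of many cell types, was at 10.02 and 10.07 in the ORM arrays and at 9.65 and 9.82 in the control arrays. The groups did not overlap, and the log2 difference was 0.31 (standard error 0.163). It was 0.395 and 0.225 against control replicates 1 and 2 alone, so that SLC7A1 was the only gene of those higher in both ORM arrays whose lowest value came from control replicate 1.

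The genes of spermidine and spermine synthesis lay on the other side of 0 from ARG2 and ASL. AMD1, which makes the aminopropyl donor, was at 10.01 and 10.00 in the ORM arrays and at 9.80 and 9.18 in the control arrays, a log2 difference of 0.515 (standard error 0.232). SRM was at 9.69 and 9.95 in the ORM arrays and at 9.55 and 9.31 in the control arrays, a log2 difference of 0.39 (standard error 0.184). SMS was at 9.34 and 9.30 in the ORM arrays and at 9.26 and 8.91 in the control arrays, a log2 difference of 0.235 (standard error 0.183). In each of these 3 genes both ORM arrays were above both control arrays and control replicate 2 was the lowest. Against control replicate 1 alone the log2 differences shrank to 0.205 for AMD1, 0.27 for SRM and 0.06 for SMS, and against control replicate 2 alone they were 0.825, 0.51 and 0.41. For SMS the 0.06 from control replicate 1 was about as small as the gap of 0.04 between the ORM arrays. RefSeq names 4 pseudogenes after AMD1, 3 after SRM and 1 after SMS, and their part in the signals was not tested.

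AZIN1, which relieves ODC1 of antizyme, was at 10.26 and 10.23 in the ORM arrays and at 10.06 and 9.84 in the control arrays. Its groups did not overlap either, with a log2 difference of 0.295 (standard error 0.167), 0.185 against control replicate 1 alone and 0.405 against control replicate 2 alone.

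SAT1, the acetylase at the head of polyamine breakdown, was at 4.66 in both ORM arrays and at 4.49 and 4.95 in the control arrays. The ORM arrays lay between the control arrays, and the log2 difference was -0.06 (standard error 0.201). Its probe set is dim, brighter than only 28.1% to 35.2% of the probe sets of an array.

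Across the 9 genes, 5 (SLC7A1, AZIN1, AMD1, SRM and SMS) had both ORM arrays above both control arrays, as had 21.4% of all probe sets. Another 2 (ASL and ARG2) had both ORM arrays below, as had 24.2% of all probe sets, and ASS1 and SAT1 overlapped. The 5 higher genes had log2 differences of 0.235 to 0.515, or 1.18-fold to 1.43-fold, and 0 of them passed the threshold from limma, by the methods' t-test or with 1 array left out. The median log2 difference of the 9 genes was 0.235, beside -0.035 over all probe sets. The 5 higher genes were bright, each above 89.8% to 97.4% of the probe sets of an array. Quantile normalization lowered their log2 differences to 0.14 to 0.416. The shares over all probe sets include dim ones, and whether bright genes were higher in general was not tested. The choice of genes was made with this comparison known, so these counts describe the genes and test nothing. SLC7A1, AZIN1, AMD1, SRM, SMS, ASL and ARG2 kept their sign with quantile normalization and median centring, the only alternatives that could have changed it. Other tests, thresholds, filters, the replicate block and averaging of probe sets leave these differences as they are. Groups that do not overlap also keep their sign with 1 array left out. ASS1 changed sign only without control replicate 2. SAT1, which a filter on signal removes, did so there and with quantile normalization.

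**Figure D2:**
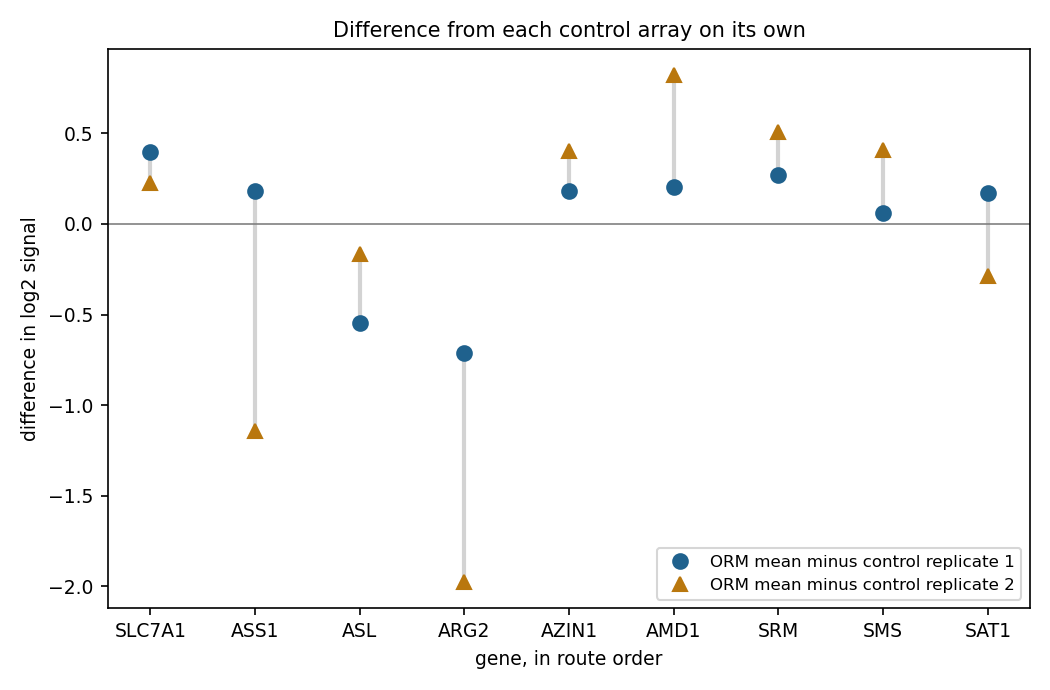
Difference in log2 signal (y axis) between the mean of both ORM arrays and each control array on its own, for the 9 genes in route order (x axis), with circles for control replicate 1 and triangles for control replicate 2. ARG2 stays below 0 against both controls (-0.71 and -1.98), ASS1 and SAT1 change side, and the 5 higher genes stay above 0, SMS at 0.06 against control replicate 1.

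The wider pathway was read from 64 further genes listed by role, of which 60 were measured. In all, 1 of the 60 passed the threshold, the carrier SLC25A13, while 0.424% of all probe sets passed it in the higher direction. Both ORM arrays lay above both control arrays in 19 of the 60 genes and below them in 14, where 21.4% of all probe sets lay above and 24.2% below, and the median log2 difference was 0.035. An unadjusted p under 0.05 from limma was found in 7 of the 60 genes, beside 2447 of all 21448 probe sets. The counts of such genes in each list below are to be read beside that share.

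Of 21 measured genes of arginine supply and use, 1 was higher past the threshold, 0 were lower and 20 did not pass, with a median log2 difference of -0.11. SLC25A13, the mitochondrial carrier that exports the aspartate used by ASS1, was at 7.17 and 6.86 in the ORM arrays and at 6.05 and 6.06 in the control arrays. Both control arrays were low and close together, and the log2 difference was 0.96 (standard error 0.177, adjusted p = 0.428 from limma). It was nearly the same against control replicate 1 alone (0.965) and control replicate 2 alone (0.955) and passed the threshold by the methods' t-test too, but fell short of it without ORM replicate 1 (0.805).

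Among the other enzymes around ornithine, OAT, which interconverts ornithine and glutamate semialdehyde, was at 7.72 and 7.70 in the ORM arrays and at 7.36 and 7.21 in the control arrays (log2 difference 0.425, standard error 0.161, not past the fold threshold). ALDH18A1, which makes glutamate semialdehyde for proline and ornithine synthesis, had a log2 difference of 0.25. PYCR1, of proline synthesis, ALDH4A1, of proline breakdown, and GAMT, the last enzyme of creatine synthesis, had log2 differences of -0.355, -0.32 and -0.405, with both ORM arrays below both control arrays in each. The cytosolic liver arginase ARG1 (2.63 to 3.12 over the 4 arrays) and the urea cycle gene OTC (2.70 to 3.28) were dimmer than the lower quartile of every array (4.14 to 4.26). CPS1, the entry enzyme of the urea cycle, was at 5.72 to 6.34 and the inducible nitric oxide synthase NOS2 at 3.95 to 4.44, and both overlapped between the groups. The neuronal and endothelial synthases NOS1 and NOS3, chosen after their values were seen, had an unadjusted p under 0.05 from limma, as did SLC25A13 and OAT, the 4 of the 21 genes that did. Of all 21448 probe sets, 2447 did. NOS1 was at 4.29 and 3.71 in the ORM arrays and at 4.67 and 4.76 in the control arrays (log2 difference -0.715, standard error 0.225). NOS3 was at 4.67 and 4.61 against 4.91 and 5.62 (log2 difference -0.625, standard error 0.251). In both genes, which were below the median of every array, the ORM arrays were the lower ones, and neither passed the fold threshold.

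Of 17 measured genes of amino acid and polyamine transport and arginine sensing, 0 passed the threshold from limma or by the methods' t-test, and 2 had an unadjusted p under 0.05, SLC3A2 and, chosen after its values were seen, the dim SLC3A1. The median log2 difference was 0.215, and both ORM arrays were above both control arrays in 7 and below them in 3, beside 21.4% and 24.2% of all probe sets. SLC3A1, the heavy chain of a cystine and basic amino acid transporter, had the largest difference of these 17 in size: it was at 3.93 and 3.91 in the ORM arrays and at 4.39 and 4.67 in the control arrays (log2 difference -0.61, standard error 0.174). Both ORM arrays were the lower ones, and the gene lay below the median of every array. SLC3A2 and SLC7A5, the chains of a large neutral amino acid transporter, were higher in both ORM arrays. SLC3A2 was at 9.51 and 9.53 against 9.09 and 9.08 in the control arrays (log2 difference 0.435, standard error 0.155). SLC7A5 was at 10.59 and 10.63 against 10.31 and 10.23 (log2 difference 0.34, standard error 0.157). In both, the gap between the groups was wider than the gap within either group. The size depended on the normalization: the log2 differences of SLC3A2 and SLC7A5 were 0.344 and 0.247 with quantile normalization. With median centring they were 0.488 and 0.393. ATP13A3, a pump tied to polyamine uptake, had a log2 difference of 0.395, with the arrays apart. SLC25A29, a mitochondrial carrier of basic amino acids, had a log2 difference of 0.445 with overlapping groups, since control replicate 1 was at 6.30 and control replicate 2 at 5.27.

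Of 11 genes of polyamine control, breakdown and hypusine, 0 passed the threshold from limma or by the methods' t-test, 0 had an unadjusted p under 0.05, and the median log2 difference was -0.07. EIF5A, the translation factor that carries hypusine, a residue made from spermidine, was at 11.88 and 11.95 in the ORM arrays and at 11.65 and 11.34 in the control arrays (log2 difference 0.42, standard error 0.178). Its relative EIF5A2 had a log2 difference of 0.32, but DHPS, which starts the making of hypusine, was at 8.41 and 8.22 against 8.47 and 8.78, a log2 difference of -0.31. OAZ1, the antizyme that AZIN1 binds, was at 10.29 and 10.30 in the ORM arrays and at 10.17 and 10.24 in the control arrays, a log2 difference of 0.09 that turned to -0.008 with quantile normalization. The spermine oxidase SMOX (0.09) overlapped between groups, and PAOX, which oxidizes acetylated polyamines, had a log2 difference of -0.21 with both ORM arrays below both control arrays.

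Of 11 genes of the methionine cycle and salvage, which make S-adenosylmethionine for AMD1 and reclaim the thioether left by SRM and SMS, 0 passed the threshold from limma or by the methods' t-test, 1 (ADI1) had an unadjusted p under 0.05, and the median log2 difference was -0.045. MAT2A, the enzyme that makes S-adenosylmethionine outside the liver, was at 10.88 and 10.97 in the ORM arrays and at 10.68 and 10.27 in the control arrays, a log2 difference of 0.45 (standard error 0.194). Its partner MAT2B had a log2 difference of 0.28. ADI1, of methionine salvage, was at 8.4 and 8.58 in the ORM arrays and at 8.0 and 7.61 in the control arrays, a log2 difference of 0.685 (standard error 0.196) that stayed under the fold threshold. AHCY, which clears S-adenosylhomocysteine, had a log2 difference of -0.215 with overlapping groups. MTAP, which splits the thioether, was at 3.19 to 3.56 and so below the lower quartile on every array.

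**Figure D3:**
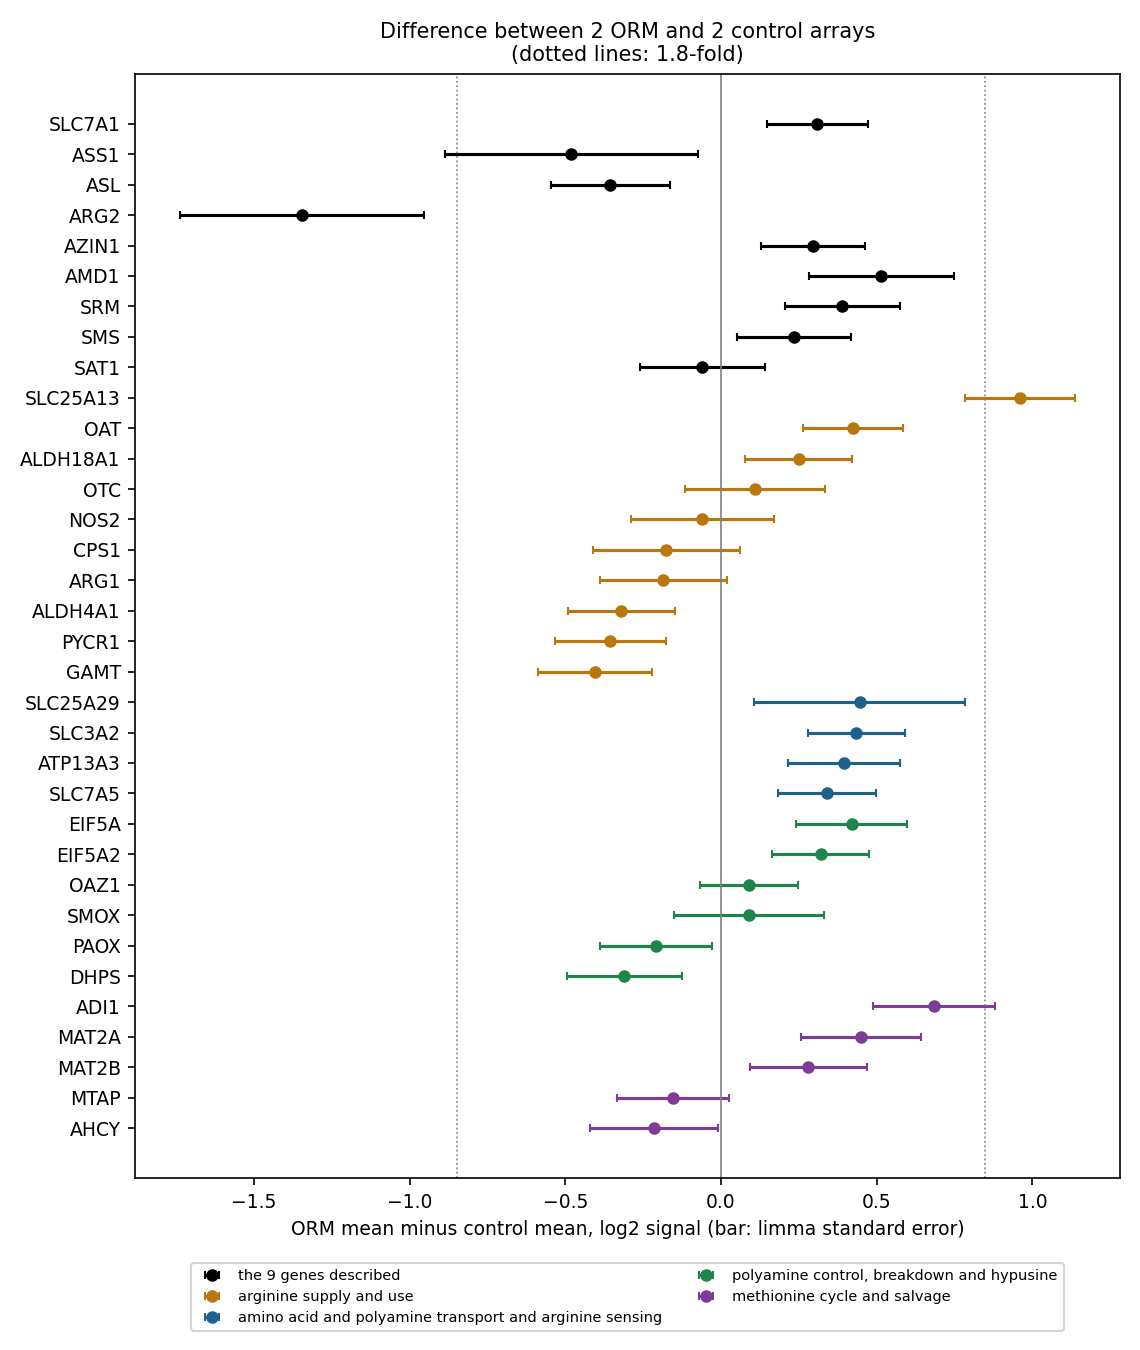
Log2 difference between ORM and control means (x axis, bars for the limma standard error) of the 9 genes described in route order, then of the named genes of 4 lists of the wider pathway (y axis). ARG2 at -1.345 and SLC25A13 at 0.96 lie beyond the dotted lines at 1.8-fold, and all other genes shown lie between those lines.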

How the data were processed

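RNA of 2 ORM and 2 control Jurkat samples was hybridized to 1 Clariom S array each. The authors deposited log2 signals per probe set, processed and normalized by a genomics unit; RMA and Transcriptome Analysis Console are named in the submitters' processing notes, with no version given in the sources used here. The RNA extraction in the labels (TRI reagent) is not that of the supplementary methods (a column kit). Scanner files were not used, so background correction was taken as deposited. The number of arrays limits the precision, and an exact two-sided permutation test of 2 against 2 cannot go below 0.333.

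All 21448 probe sets were tested by limma 3.58.1 under R 4.3.3, using lmFit and eBayes without a filter and with Benjamini-Hochberg adjustment, a procedure tested on simulated data. The simulated arrays had equal spread in both groups, so the wider spread of the control arrays here was not covered. The p-values reflect the spread of these arrays alone, which may be partly technical. Symbols came from the platform annotation (1 symbol for 17709 probe sets, none listed for 3739), and each gene is represented by its brightest probe set. The genes described and the lists of other genes were chosen with earlier results of these data known. Named from each list were the genes past the threshold, the 4 largest other differences at a mean log2 signal of at least 5, the brightest gene and 14 genes given for their level. Alternatives were other normalizations, filters, tests and thresholds, the replicate number as a block and each array left out.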

Additional observations from a re-analysis of the deposited data

How the results depend on the processing

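The count of probe sets past the threshold, 151, was 49 by the methods' t-test, 941 at a fold change over 1.5, 68 at a fold change over 2 and 100 to 1009 with 1 array left out (100 without control replicate 2, 1009 without control replicate 1 and 235 without ORM replicate 1). The share of them higher in ORM cells was 60.3%, and 74.5% of 165 with each array centred on its median, which moved the median of all probe sets from -0.035 to 0.018. The share was 75.5% by the t-test and 41.1% without control replicate 1. Of the 9 genes described, 0 passed by the t-test, 0 at an unadjusted p under 0.01, and 0 to 2 with 1 array left out; ARG2 was lost without ORM replicate 1 and without control replicate 2, and ASS1 joined it without control replicate 1. The median of the 9 differences was 0.14 with quantile normalization, 0.287 with median centring, 0.265 with either filter on dim probe sets, which removes SAT1, and 0.185 to 0.255 with 1 array left out.

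For arginine supply and use, 3 genes passed at a fold change over 1.5 (SLC25A13, higher in ORM cells, and NOS1 and NOS3, lower), 0 at a fold change over 2 and 1 to 2 with 1 array left out: NOS1 in place of SLC25A13 without ORM replicate 1, and NOS3 beside it without control replicate 1. For transport and sensing, 1 passed at 1.5 (SLC3A1, lower) and 0 to 1 with 1 array left out (SLC25A29, higher, without control replicate 1). For the methionine list, 1 passed at 1.5 (ADI1, higher) and 0 to 2 with 1 array left out (ADI1, higher, and GNMT, lower, without control replicate 1). NOS1, NOS3, SLC3A1 and GNMT were named after their values were seen. Counts for polyamine control, breakdown and hypusine were 0 under each alternative. A left-out array leaves 1 sample in its group, which is assumed to vary like the other group. Replicate numbers are shared by the groups, but the replicate differences of both groups correlated at only 0.0929 over probe sets, and nothing in the labels pairs the samples. With a replicate block 162 probe sets passed, ARG2 and SLC25A13 among them, and the counts of the 9 genes and of the 4 lists did not change.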
